A study of Mus musculus with 6 samples.

Results

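The genes of the platelet-derived growth factor (PDGF) system, 4 ligands (Pdgfa, Pdgfb, Pdgfc and Pdgfd) and 2 receptors (Pdgfra and Pdgfrb), were followed in mouse primary lung fibroblasts. They were taken by gene symbol, 6 of the 55487 genes in the count table, and 5 of the 6 had enough reads to be tested. The cells came from wild-type C57BL/6 mice. All of them were held in 0.1% serum for 24 h, and then received either PBS or rmCIRBP (1 µg/mL), the cold-inducible RNA-binding protein of the mouse in recombinant form, for another 24 h. There were 3 libraries of polyA-selected RNA for each of the 2 groups. Whether each library came from its own animal or culture is not said in the labels. The spread behind every p-value is therefore that among these libraries and may be technical.

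PDGF chains are secreted as dimers that bind 2 receptor tyrosine kinases on mesenchymal cells and drive their division and migration. PDGF-A and PDGF-C act through PDGFRA, PDGF-B acts through both receptors, and PDGF-D acts mainly through PDGFRB. PDGF-C and PDGF-D are secreted in a latent form that proteases must cut before they can bind. In the lung, PDGF-A from the epithelium is needed by Pdgfra-positive fibroblasts during formation of alveoli, whereas Pdgfrb is a marker of pericytes and other mural cells and PDGF-B is made largely by endothelium.

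Libraries held 12105584 to 14262375 counts. The fibroblast collagens were abundant, with Col1a1 among 14 fibroblast markers that summed to 22917 to 27960 CPM (the depth-normalised count, scaled to library size and composition) in PBS and 19248 to 25540 CPM after rmCIRBP. Within this list Dcn was called higher and Thy1 and Mfap5 lower, with log2 fold changes of 1.21, -1.21 and -0.95. Of 10 epithelial markers 9 stayed under 1 CPM in every library, and so did 6 of 10 endothelial markers. One library stood apart: rmCIRBP 2 had the highest sum of 9 smooth muscle markers, 10897 CPM, against 5193 and 2349 CPM in rmCIRBP 1 and 3. In PBS these sums were 6148, 3211 and 3281 CPM in libraries 1, 2 and 3, so that PBS 1 was also high. None of the 9 passed the test between groups. Results are therefore given with and without rmCIRBP 2 where it mattered.

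Across all genes tested, 11.5% were called by edgeR (quasi-likelihood F test, Benjamini-Hochberg, adjusted p under 0.05), 6.74% as higher and 4.77% as lower after rmCIRBP. None of the 5 tested PDGF genes passed it, by edgeR or by limma voom (11% of all genes called), while DESeq2, which called 16.6% of all genes, called 1, Pdgfa. On simulated data, in which 193 of 15538 genes were changed, 22.5% of the calls of DESeq2 and 8.33% of those of edgeR were false. There edgeR called 50.5% of 2-fold changes, so an uncalled gene is not shown to be unchanged. Such shares depend on how many genes change. A larger part of all genes was called in the real data, so the simulated shares are not rates for them. At an unadjusted p of 0.05, edgeR's model counted 28.8% of all genes and 1 of the 5 members, again Pdgfa. Fitted log2 fold changes were 0.12 and 0.55 for the receptors and between -0.40 and -0.32 for the 3 tested ligands, with 95% intervals that included 0 for all but Pdgfa. A difference between receptors and ligands was not tested.

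Pdgfra (ENSMUSG00000029231; chromosome 5, 75152292 to 75198215, plus strand, GRCm38) encodes the receptor for PDGF-A and PDGF-C. It stood at 417, 426 and 434 CPM in PBS 1, 2 and 3, and at 770, 346 and 759 CPM in rmCIRBP 1, 2 and 3. The PBS libraries were almost equal, libraries 1 and 3 of rmCIRBP were far above all of them, and rmCIRBP 2 was below all of them, so the groups overlapped. Group means were 425 ± 8.49 CPM and 625 ± 241 CPM (SD, n = 3 each). The log2 fold change was 0.55 ± 0.28 (SE; 95% interval -0.09 to 1.20), which edgeR did not call (adjusted p = 0.232). In bulk RNA, more cells of a type and more transcripts per cell cannot be told apart.

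The result for Pdgfra rested on 1 library. Without rmCIRBP 2 the log2 fold change was 0.85 ± 0.12 and edgeR called it higher (adjusted p = 0.00322), in a fit where 9.96% of genes were called. Without each of the other libraries in turn it lay between 0.38 and 0.57, and none of these fits called it. Leaving out rmCIRBP 2 removed the lowest Pdgfra value, so the adjusted p of that fit describes this dependence and is not a separate test. The SD of log2 CPM of Pdgfra was 0.03 among PBS libraries, where 2.01% of tested genes had a smaller one, and 0.66 among rmCIRBP libraries, where 89.7% had a smaller one. Pdgfra in rmCIRBP 2 was lower by a log2 ratio of -1.14 than the mean of the other rmCIRBP libraries, while in PBS 1, also high in smooth muscle markers, the same ratio to the other PBS libraries was -0.05. The part of smooth muscle content in this result was not tested.

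**Figure D1:**
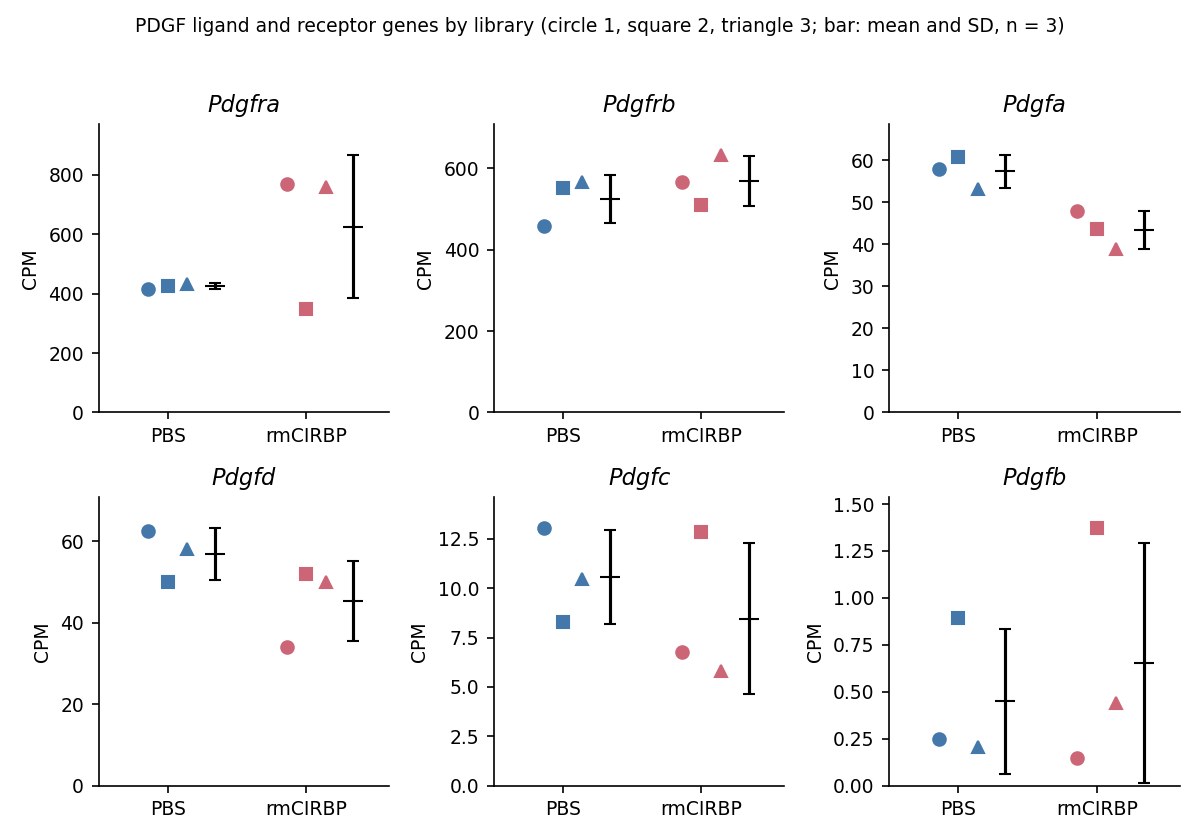
Level of each PDGF gene in CPM in each library, by treatment, with the group mean and SD (n = 3) as a bar. Pdgfra is nearly equal in the PBS libraries and splits in the rmCIRBP libraries, with library 2 (square) at 346 CPM, and Pdgfa is the one gene whose groups do not overlap.

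Pdgfrb (ENSMUSG00000024620; chromosome 18, 61045150 to 61085061, plus strand) encodes the receptor for PDGF-B and PDGF-D. Its levels were 457, 552 and 566 CPM in PBS 1, 2 and 3 and 566, 509 and 632 CPM in rmCIRBP 1, 2 and 3. The ranges overlapped, and the lowest value was that of a PBS library and the highest that of an rmCIRBP library. Means were 525 ± 59.0 and 569 ± 61.7 CPM (SD, n = 3 each), with a log2 fold change of 0.12 ± 0.14 (SE), with 0.629 as edgeR's adjusted p. The 95% interval of the fold, 0.865 to 1.36, spans a fall as well as a rise.

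Within a library the 2 receptors can be compared without scaling. The log2 ratio of Pdgfra to Pdgfrb counts was -0.13, -0.37 and -0.38 in PBS 1, 2 and 3 and 0.44, -0.55 and 0.26 in rmCIRBP 1, 2 and 3. Pdgfra thus had more counts than Pdgfrb in rmCIRBP 1 and 3 and fewer in the other 4 libraries. The mean ratio differed by 0.35 between groups (-0.30 ± 0.14 and 0.05 ± 0.53, SD, n = 3 each), with a two-sided exact permutation p of 0.4, where 0.1 is the smallest that 3 against 3 can give. Without rmCIRBP 2 the difference was 0.65. Per exon length, Pdgfra made up 30.8 ± 2.10% of the 2 receptors' transcripts in PBS and 36.5 ± 8.23% after rmCIRBP (SD, n = 3 each). These shares depend on the length taken for each gene.

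Promoters are shown for Pdgfra and Pdgfa, the receptor and the ligand with the largest fitted changes, as RefSeq gives them on GRCm38.p6, from 250 bases before to 50 after the start. Capitals mark matches to GGGCGG (a GC box, the motif of SP1-type factors) on either strand.
Pdgfra, chr5:75152001-75152300, plus strand: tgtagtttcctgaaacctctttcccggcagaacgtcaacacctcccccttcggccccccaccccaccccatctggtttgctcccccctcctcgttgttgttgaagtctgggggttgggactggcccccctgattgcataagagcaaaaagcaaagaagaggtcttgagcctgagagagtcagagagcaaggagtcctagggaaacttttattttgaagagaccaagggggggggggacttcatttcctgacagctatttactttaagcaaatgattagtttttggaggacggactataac
Pdgfa, chr5:138994895-138995194, minus strand: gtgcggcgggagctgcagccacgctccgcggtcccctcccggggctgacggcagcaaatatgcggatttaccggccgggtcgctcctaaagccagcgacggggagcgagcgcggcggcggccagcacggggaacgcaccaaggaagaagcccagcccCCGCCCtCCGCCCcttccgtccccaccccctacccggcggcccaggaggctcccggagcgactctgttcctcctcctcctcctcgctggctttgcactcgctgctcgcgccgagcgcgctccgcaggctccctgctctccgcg
The Pdgfa window held 73.3% G and C and had 2 GC boxes, both on the reverse strand, beginning 93 and 86 bases before the start (-93 and -86). A further RefSeq start of Pdgfa, in a window with 67.0% G and C, had 1 GC box at -60. The Pdgfra window held 51.0% G and C, near the median of 52.7% over 32851 promoters, and had none. GC boxes were found in 35.7% of all promoters. The other motifs searched on both strands, GCGNGGGCG (EGR factors, 5.55% of all promoters), TGANTCA (AP-1, 7.81%), a form of the NF-kB site (1.63%), a form of the serum response element (12.2%) and TATAAA (the TATA box, 13.6%), did not occur in the windows of either gene. Of the other members with a window here, Pdgfc held none of these motifs and Pdgfd held TATAAA once, at -160, outside the place where a TATA box usually lies. A match is a description of the letters and not of a bound site.

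Pdgfa (ENSMUSG00000025856; chromosome 5, 138976014 to 138997370, minus strand) encodes the PDGF-A chain, a ligand of PDGFRA. It was at 58.0, 60.9 and 53.2 CPM in PBS 1, 2 and 3 and at 47.9, 43.7 and 38.9 CPM in rmCIRBP 1, 2 and 3. All 3 treated libraries lay below all 3 controls, and Pdgfa was the only 1 of the 5 tested members whose groups did not overlap, where 34.6% of all genes tested had groups that did not overlap. Means were 57.4 ± 3.88 and 43.5 ± 4.50 CPM (SD, n = 3 each), a log2 fold change of -0.40 ± 0.11 (SE; 95% interval -0.67 to -0.14). edgeR's adjusted p was 0.0617, above the threshold of 0.05, and leaving out single libraries gave 0.0992 to 0.204. DESeq2 called it lower (adjusted p = 0.0441), and so did edgeR with upper quartile scaling (adjusted p = 0.0379, 12.3% of all genes called), a scaling under which the median log2 fold change of all genes was -0.07, in place of -0.01. An antisense gene, 6330403L08Rik, shares 813 exonic bases with Pdgfa. It had 232 to 288 counts per library, and without a stated strand setting reads of the shared part cannot be told apart.

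Pdgfd (ENSMUSG00000032006; chromosome 9, 6168584 to 6378850, plus strand) encodes the latent ligand of PDGFRB. It was at 62.6, 50.1 and 58.0 CPM in PBS 1, 2 and 3 and at 34.1, 51.9 and 49.99 CPM in rmCIRBP 1, 2 and 3. The low value was that of rmCIRBP 1, and rmCIRBP 2 lay above PBS 2. The log2 fold change was -0.33 ± 0.17 (SE), with 0.255 as edgeR's adjusted p, and -0.16 without rmCIRBP 1.

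Pdgfc (ENSMUSG00000028019; chromosome 3, 81036416 to 81214040, plus strand) encodes the latent ligand of PDGFRA. Its levels were 13.0, 8.28 and 10.4 CPM in PBS 1, 2 and 3 and 6.75, 12.8 and 5.78 CPM in rmCIRBP 1, 2 and 3. PBS 1 and rmCIRBP 2, the libraries with the highest smooth muscle sums in their groups, were also the highest for Pdgfc. The log2 fold change was -0.32 ± 0.32 (SE), with 0.551 as edgeR's adjusted p. Without rmCIRBP 2 it was -0.75 ± 0.25, not called by edgeR (adjusted p = 0.105), and without rmCIRBP 3, PBS 1 or rmCIRBP 1 it was -0.11, -0.14 or -0.18. Gm16000, an antisense gene with 4 to 24 counts per library, shares 147 exonic bases with Pdgfc. Without a stated strand setting, reads of that shared part cannot be told apart either. Taken as deviations from the group means of log2 CPM over the 6 libraries, Pdgfc and Pdgfra ran opposite to each other (Pearson's r = -0.87), as did Pdgfc and Pdgfrb (r = -0.84). These were the strongest correlations among all pairs of members, and they are descriptions. In its group rmCIRBP 2 held the highest Pdgfc value and the lowest Pdgfra and Pdgfrb values. The log2 ratio of Pdgfa to Pdgfc counts averaged 2.46 ± 0.37 in PBS and 2.45 ± 0.59 after rmCIRBP (SD, n = 3 each; two-sided exact permutation p = 1).

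Pdgfb (ENSMUSG00000000489; chromosome 15, 79995874 to 80014977, minus strand) encodes the PDGF-B chain, which binds both receptors. It had 3, 11 and 3 counts in PBS 1, 2 and 3 and 2, 19 and 6 counts in rmCIRBP 1, 2 and 3, that is 0.147 to 1.37 CPM, and did not pass the filter on low counts. Library 2 was the highest in each group. The groups overlapped, and 3 of the 6 libraries had no more than 3 counts. When no filter was applied, edgeR gave a log2 fold change of 0.57 ± 0.80 (SE; adjusted p = 0.701).

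**Figure D2:**
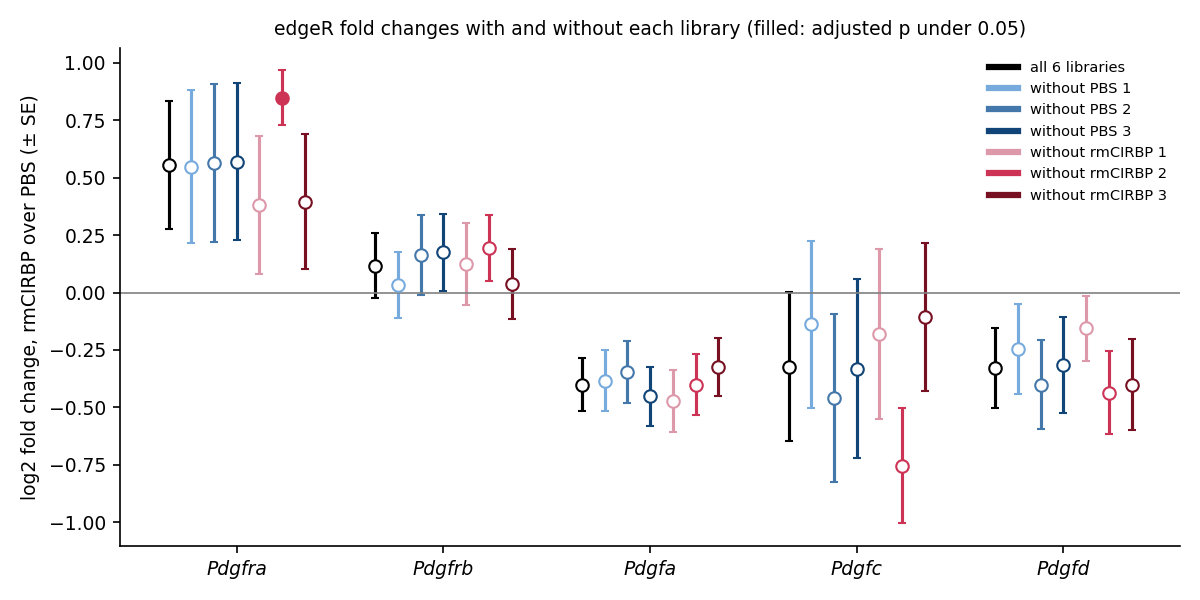
Fitted log2 fold change of rmCIRBP over PBS with its SE for the 5 tested PDGF genes, from all 6 libraries (black) and without each library in turn (colours). The filled point is the only fit called by edgeR, Pdgfra without rmCIRBP 2, at 0.85.

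Levels were compared between the genes per length, as RPKM (CPM divided by the total exon length of the gene in kb). In PBS, Pdgfrb was the highest at 95.8 ± 10.8 RPKM, followed by Pdgfra at 42.4 ± 0.847, Pdgfa at 18.4 ± 1.24, Pdgfd at 18.04 ± 2.00, Pdgfc at 2.08 ± 0.468 and Pdgfb at 0.108 ± 0.0926 (SD, n = 3). Pdgfa, at 17.1 to 19.5 RPKM, and Pdgfd, at 15.9 to 19.8 RPKM, did not differ beyond their spread, and all other neighbours in this order were separated in every library. After rmCIRBP the order of the 2 receptors was the same by this measure, with 103.9 ± 11.3 RPKM for Pdgfrb and 62.3 ± 24.1 RPKM for Pdgfra. Using instead the principal coding transcript of each gene, a choice made after seeing the data, the receptors lay closer, at 105.2 ± 11.4 and 91.4 ± 35.3 RPKM, and their ranges after rmCIRBP overlapped. Total exon length is 10024 bases for Pdgfra against 6834 for its principal transcript, so the distance between the receptors depends on which transcripts these cells use.

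Summed per exon length, the 4 ligands came to 41.1, 37.3 and 37.6 RPKM in PBS 1, 2 and 3 and to 27.5, 33.3 and 29.5 RPKM in rmCIRBP 1, 2 and 3. The 2 receptors came to 125, 143 and 147 RPKM in PBS and to 180, 127 and 191 RPKM after rmCIRBP. By this measure receptor transcripts outnumbered ligand transcripts in every library. The ratio was 3.60 ± 0.480 in PBS and 5.61 ± 1.55 after rmCIRBP (SD, n = 3 each), with rmCIRBP 2 at 3.83, within the PBS range. Pdgfa and Pdgfd held nearly all of the ligand sum, 47.7 ± 4.07% and 46.6 ± 3.48% in PBS and 46.7 ± 7.90% and 47.4 ± 7.39% after rmCIRBP. The size of these ratios and shares depends on the lengths used. Per principal transcript, PBS means were 97.1 RPKM for Pdgfrb, 62.3 for Pdgfra, 31.7 for Pdgfd and 27.9 for Pdgfa.

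**Figure D3:**
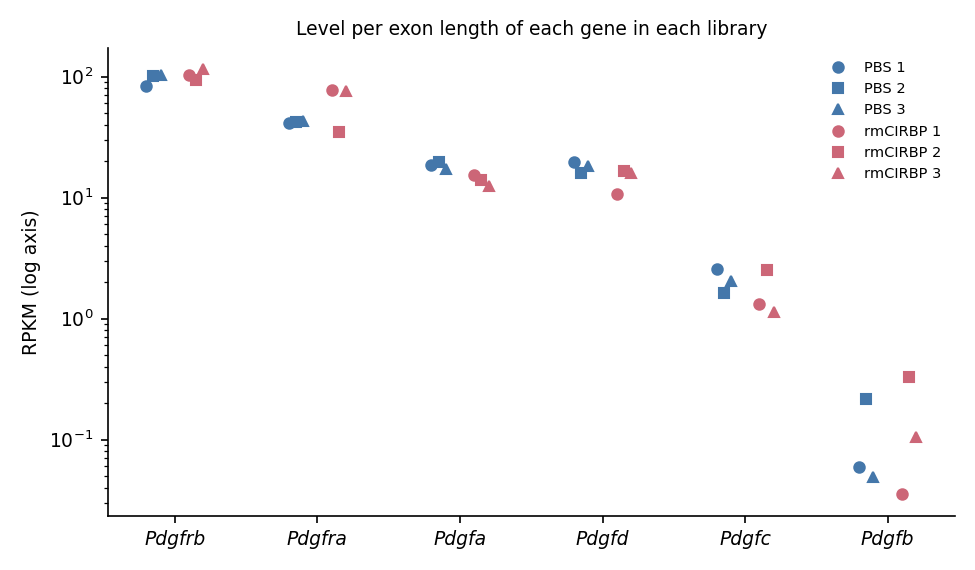
Level per exon length (RPKM, log axis) of each PDGF gene in each of the 6 libraries. Receptors lie above ligands throughout, Pdgfa and Pdgfd are level with each other, and Pdgfb is at 0.330 RPKM or less.

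Genes with the most similar profile were sought among 12508 other protein-coding genes, by Pearson's r of log2 CPM over the 6 libraries. For Pdgfra these were Ptpn13, a protein tyrosine phosphatase (r = 0.998), Atp2b4, a plasma membrane calcium pump (0.996), and Umad1 (0.991). Ptpn13 was at 56.9, 59.4 and 58.5 CPM in PBS and 84.9, 52.2 and 83.3 CPM in rmCIRBP 1, 2 and 3, so it showed the same gap at rmCIRBP 2. For Pdgfrb they were Vps8, Sidt2 and Fndc3a (0.990, 0.988 and 0.985), and for Pdgfa Kdm3b, Hsd17b10 and the calcium channel gene Cacna1c (0.999, 0.995 and 0.994). Pdgfc was most like the microtubule-associated Map1b and Map6 (0.998 and 0.987) and Pde4dip (0.985), and Pdgfd most like Jazf1, Prl3a1 and Ormdl2 (0.993, 0.990 and 0.989). By deviations from the group means, the most similar genes were Gipc3, Ptpn13 and Zcwpw2 for Pdgfra, Zdhhc17, Parp9 and Xpnpep2 for Pdgfrb, Gm5901, Kdm3b and Hsd17b10 for Pdgfa, Map1b, Cox6a2 and Fgd3 for Pdgfc, and Jazf1, Zscan29 and Pcdhgb5 for Pdgfd (r from 0.991 to 0.9995). Each r is the highest of 12508 over only 6 libraries and is a description.

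Proteins that process PDGF or bind it were read next, in a list of 17 genes of which 16 were tested. Sdc4 and A2m were called higher and Plat and Pcsk6 lower, where 6.74% of all genes were higher and 4.77% lower. The median log2 fold change was 0.01, against -0.01 over all genes tested. Plat, the tissue plasminogen activator that cuts latent PDGF-C, was at 84.0, 119.6 and 125.7 CPM in PBS 1, 2 and 3 and at 52.4, 32.3 and 62.6 CPM in rmCIRBP 1, 2 and 3, so the groups did not overlap. Its log2 fold change was -1.16 ± 0.25 (SE), with 0.0245 as edgeR's adjusted p. Plau, the urokinase that can cut latent PDGF-D, was at 49.2 ± 7.17 and 30.6 ± 11.7 CPM (SD, n = 3 each), a log2 difference of -0.69 with 0.119 as edgeR's adjusted p. Furin, a convertase that matures PDGF-A and PDGF-B, was at 130.1 ± 7.19 and 138.3 ± 10.0 CPM, and was not called.

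Pcsk6, a relative of Furin, fell from 57.5 ± 3.39 to 36.9 ± 5.05 CPM (SD, n = 3 each), a log2 difference of -0.64 with 0.0177 as edgeR's adjusted p. Without PBS 2, PBS 3 or rmCIRBP 1, neither Plat (edgeR adjusted p = 0.0952, 0.0922 and 0.0757) nor Pcsk6 (0.0816, 0.0574 and 0.0648) was called. These fits called 4.47%, 5.33% and 4.57% of all genes, against 11.5% with all libraries. The log2 fold changes in them were -1.09, -1.05 and -1.21 for Plat and -0.58, -0.66 and -0.53 for Pcsk6. Sdc4, a heparan sulphate proteoglycan of the cell surface, rose from 74.9 ± 14.6 to 291 ± 8.07 CPM, a log2 difference of 1.96 with 0.000295 as edgeR's adjusted p. A2m, a protease inhibitor that also binds PDGF, rose from 0.160 ± 0.0905 to 8.35 ± 3.16 CPM, a PBS level at or under the limit of 3 counts. The PDGF-binding matrix proteins Sparc and Thbs1 had log2 fold changes of -0.23 and -0.14, the co-receptors Nrp1 and Lrp1 -0.06 and 0.15, and the receptor-like Pdgfrl -0.25, with none called.

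Of 44 genes that act at or just below the activated receptors, all 44 tested, 7 were higher and 1 was lower (median log2 fold change 0.08). The shares over all genes tested were 6.74% higher and 4.77% lower. Ptprj, a receptor-type phosphatase that removes phosphate from PDGFRB, rose from 18.8 ± 1.49 to 34.2 ± 2.13 CPM (SD, n = 3 each), a log2 difference of 0.86 ± 0.12 (SE) with 0.00416 as edgeR's adjusted p. Ptpn2, a phosphatase of the same receptor, rose by 0.83 and Slc9a3r1, a scaffold that binds PDGFRB, rose by 0.89 on the log2 scale. The adaptor Nck2 fell from 38.1 ± 3.81 to 23.4 ± 0.600 CPM, a log2 difference of -0.71 with 0.00818 as edgeR's adjusted p. Without PBS 2, PBS 3, rmCIRBP 1 or rmCIRBP 3 the number called higher was 1, 2, 2 or 3. The share of all genes called higher also fell in these fits, to 3.17%, 3.6%, 3.32% and 5.17%. Ptprj and Nck2 were called without each library in turn. The call of Ptpn2 ended when PBS 2, PBS 3 or rmCIRBP 1 was left out, at edgeR adjusted p-values of 0.0744, 0.0611 and 0.0706. That of Slc9a3r1 ended in the same 3 fits, at 0.0968, 0.102 and 0.0903 by edgeR, and also when rmCIRBP 3 was left out (0.0619).

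Genes that PDGF or serum switch on early in fibroblasts formed a list of 30, all tested. The list was chosen with earlier results of these data known, so its counts are a description. Of the 30, 10 were higher, 0 lower and 20 not called (median log2 fold change 0.47), where 6.74% of all genes were higher. Those with the smallest p were the chemokine genes Ccl2, Ccl7 and Cxcl1 (log2 fold changes 7.40, 6.36 and 5.29) and Ier3, an early response gene (2.10). As background, these genes answer to NF-kB and many other signals as well as to PDGF. Egr1 and Fos, the classical early genes, were not called. All libraries were taken after 24 h of treatment, and earlier times were not measured. Egr1 was at 514, 628 and 732 CPM in PBS 1, 2 and 3 and at 764, 179 and 761 CPM in rmCIRBP 1, 2 and 3, with rmCIRBP 2 far below the rest.

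**Figure D4:**
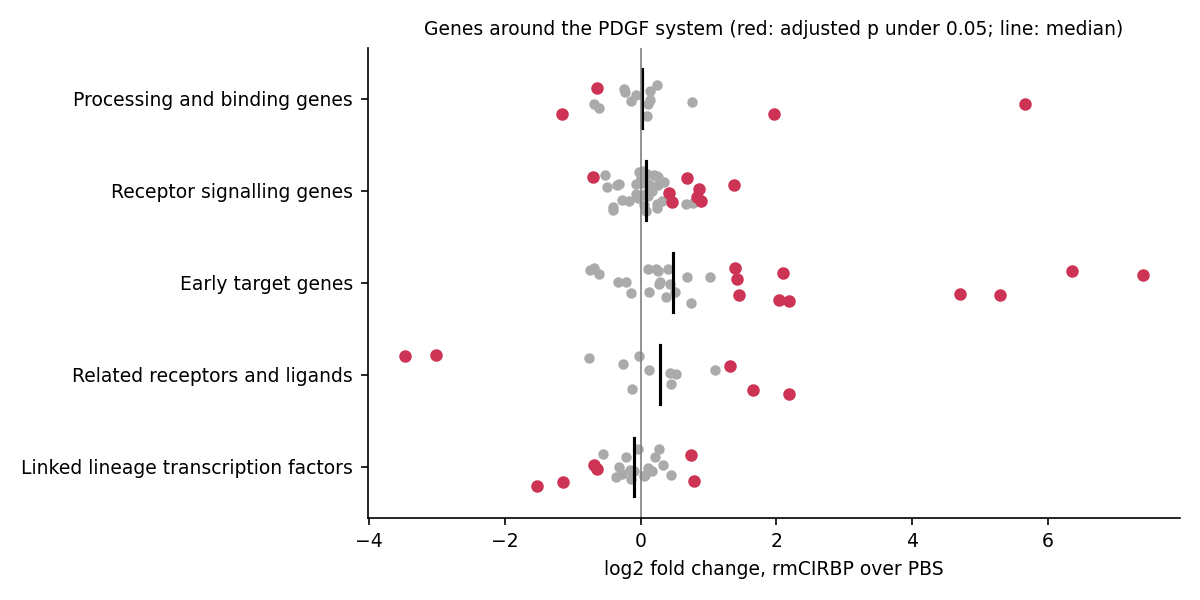
Log2 fold change of rmCIRBP over PBS for each tested gene (points) of the 5 gene lists around the PDGF system, with list medians as lines. Red points passed edgeR's test, 10 of 30 early target genes among them, all higher, where 6.74% of all genes tested were higher. The lists were chosen with earlier results of these data known.

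The nearest relatives of the PDGF genes, other receptors and ligands of the same superfamilies, changed in both directions. Of 14 tested, Flt4, Csf1 and Pgf were higher and Kdr and Kit lower (median log2 fold change 0.28), where 6.74% of all genes were higher and 4.77% lower. Kit, the stem cell factor receptor and a close relative of Pdgfra, fell from 11.8, 20.5 and 16.6 CPM in PBS 1, 2 and 3 to 2.35, 1.15 and 2.49 CPM in rmCIRBP 1, 2 and 3 (log2 fold change -3.02 ± 0.33, edgeR adjusted p = 0.00152). Kdr, a VEGF receptor, fell from 13.9 ± 2.70 to 1.24 ± 0.394 CPM (SD, n = 3 each), a log2 difference of -3.48 ± 0.29 (SE) with 0.000472 as edgeR's adjusted p. Both calls were made without each library in turn. Of 10 endothelial markers 4 were tested, and 2 of these, Kdr and Tek, were called lower and 2 were not called. Over all genes tested 4.77% were lower. Pecam1, Cdh5, Tie1, Emcn and Cldn5 were under 1 CPM in both groups. The summed level of the 10 markers was 20.3 to 27.8 CPM in PBS, most of it Kdr and Tek, and 7.001 to 8.44 CPM after rmCIRBP. The part of other cells in these falls was not tested.

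Kit and Kdr lie downstream of Pdgfra on chromosome 5, their starts 423 and 826 kb from its own. Within 1000 kb of the start of Pdgfra, a window chosen after the values were seen, 10 other genes were tested, and 2, Kit and Kdr, were called lower and 0 higher, where 4.77% of all genes were lower. The same window held 30 tested genes around Pdgfrb, 6 higher and 1 lower, and 39 around Pdgfa, 2 higher and 3 lower. Around Pdgfb it held 42, with 2 in each direction, around Pdgfc 2, with none called, and around Pdgfd 3, with 2 higher. Over all genes tested 6.74% were higher. Gm5970, Gm4841, Iigp1 and BC023105, among the 6 higher around Pdgfrb, lay together far upstream, at -824, -772, -669 and -603 kb. Around Pdgfra, the other 8 of the 10 had log2 fold changes from -0.47 (Rasl11b) to 0.40 (Lnx1). Pdgfra itself had a fitted 0.55, with a 95% interval that began at -0.09. Gm42802 and Gm42803, short genes that are among the 10, share 456 and 166 exonic bases with Pdgfra, with 10 to 65 counts per library.

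Csf1r, the macrophage colony-stimulating factor receptor gene next to Pdgfrb, was at 9.85 ± 1.84 and 13.3 ± 1.29 CPM and was not called (SD, n = 3 each), a log2 difference of 0.43 with 0.175 as edgeR's adjusted p. Its ligand Csf1 rose from 1192 ± 236 to 2974 ± 658 CPM, a log2 difference of 1.32 with 0.00834 as edgeR's adjusted p (0.0531 without PBS 2). Kitl, the ligand of Kit, had a log2 fold change of -0.02. Flt4, a receptor for VEGF-C and VEGF-D, rose by 1.65, in every fit without 1 library, and Pgf, a VEGF relative, rose by 2.18. Pgf was at 5.99 CPM in rmCIRBP 2, inside the PBS range of 3.96 to 6.17 CPM. edgeR called Pgf without rmCIRBP 2, but not without any other single library (adjusted p of 0.0848 to 0.157) and not with a replicate block (0.106). Without PBS 2 the number of relatives called higher was 1, in a fit where 3.17% of all genes were called higher.

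**Figure D5:**
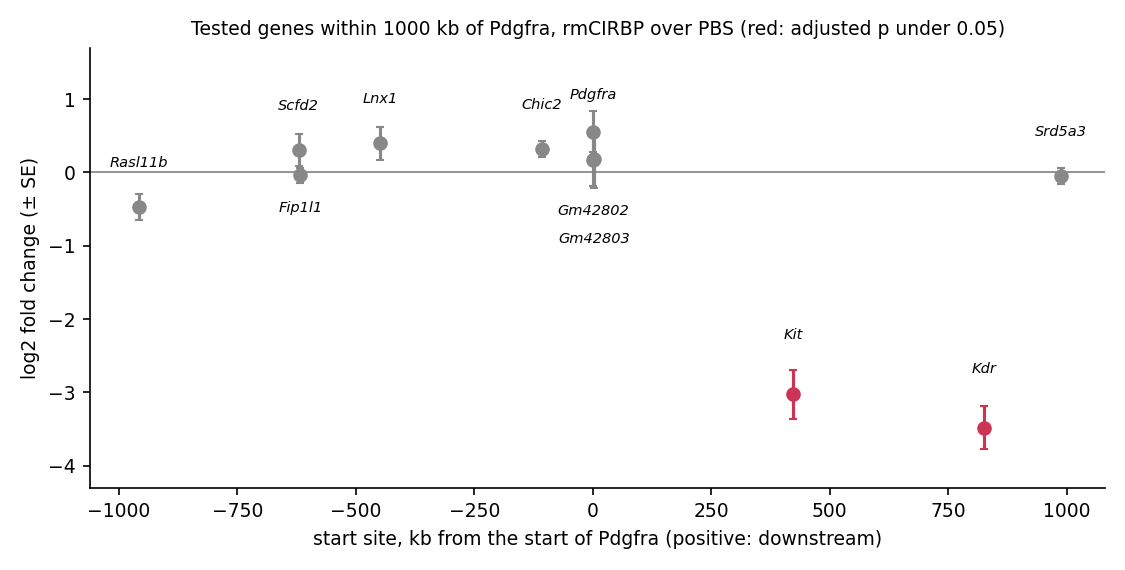
Log2 fold change with SE of Pdgfra and the 10 other tested genes within 1000 kb of its start, by distance between starts in kb. Kit and Kdr, at -3.02 and -3.48, are the genes called, and the others lie between -0.47 and 0.55.

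Transcription factors of Pdgfra- or Pdgfrb-expressing mesenchyme, or known at these promoters, formed a list of 28, of which 23 were tested. Of these, 2 were called higher and 4 lower (median log2 fold change -0.10), where 6.74% of all genes were higher and 4.77% lower. Foxf1, a lung mesenchyme factor, rose from 59.6 ± 6.18 to 103 ± 4.99 CPM and Zeb2 from 134 ± 13.8 to 224 ± 18.9 CPM (SD, n = 3 each), both called without each library in turn. Tbx5, Ebf1, a factor of mural and adipose lineages, Snai2 and Klf5 fell by 0.68, 1.53, 0.64 and 1.14 on the log2 scale. None of these 4 was called without PBS 2, PBS 3 or rmCIRBP 1 (edgeR adjusted p of 0.0565 to 0.136). The share of all genes called lower also fell in these fits, to 1.3%, 1.74% and 1.25%. Snai2 and Klf5 were also not called without PBS 1 or rmCIRBP 2, nor Klf5 without rmCIRBP 3.

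Markers of cells that carry or feed the PDGF system were read beside these values. Of 10 pericyte markers, 7 were tested and 1, Cspg4, was called lower, from 9.07 ± 4.69 to 2.19 ± 0.583 CPM (SD, n = 3 each), while Higd1b had no count, and their sum was 169 to 211 CPM in PBS and 120 to 239 CPM after rmCIRBP, highest in rmCIRBP 2. The other pericyte markers that passed the filter, Notch3, Mcam, Postn, Rgs5, Kcnj8 and Abcc9, were not called. The 12 macrophage markers, 3 called higher and 3 lower, summed to 124 to 164 CPM in PBS and 76.3 to 146 CPM after rmCIRBP. Among all genes tested, 6.74% were called higher and 4.77% lower. Of 8 platelet and megakaryocyte markers, which would mark another source of PDGF, 6 were under 1 CPM in every library, Ppbp and Gp6 among them at 0. Pf4 was also under 1 CPM. The 2 that were tested were Itga2b, which fell from 10.7 ± 1.58 to 4.84 ± 1.67 CPM (SD, n = 3 each) and was called lower by edgeR (adjusted p = 0.0374), and Gp1ba, at 3.18 ± 0.765 and 2.09 ± 0.225 CPM and not called. Apart from that of Kdr, the calls of cell type markers were not checked by leaving out single libraries. The part of these cells in the PDGF values was not tested.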

How the data were processed

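Counts per gene were deposited by the authors as raw counts, 1 column per library. featureCounts, DESeq2, R 4.1.2 and the GRCm38 (mm10) build are named per the submitters' processing notes. For the aligner, annotation release and strand setting, the entry is: not given in the sources used here. Columns were matched to samples by group and number, with 0 left unmapped.

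The deposited counts were filtered with filterByExpr (15801 genes left), scaled by trimmed mean of M values and tested in R 4.3.3 with edgeR 4.0.16's quasi-likelihood F test, two-sided, treatment as the only term, with Benjamini-Hochberg adjustment over all genes. Each SE is the absolute log2 change over the square root of F. Exon lengths, overlaps and principal transcripts are from GENCODE M21, in which 55141 identifiers were found and 54784 had the same start and end. Promoters are from RefSeq (GRCm38.p6), where 4 of the 6 genes were matched and searched. The promoter of Pdgfrb, on chromosome 18, was left out by choice, and none of Pdgfb was used here. The tests were tried on simulated data, in which 193 of 15538 genes were changed 2-fold or 4-fold. edgeR called 50.5% of the 2-fold and 86.5% of the 4-fold changes, limma voom 51.5% and 84.4%, and DESeq2 62.9% and 87.5%. False calls made up 8.33%, 6.43% and 22.5% of the calls of edgeR, limma voom and DESeq2. These shares hold for a single simulated draw with few changed genes and are not rates for the real data. limma 3.58.1 and DESeq2 1.42.0 were alternatives, beside other scalings and filters, leaving out libraries, and a replicate block.

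Members and lists were chosen with earlier results of these data known. Named genes are the members, up to 4 called genes per list and direction with the smallest p, the direct processors, binders and relatives, and the 3 most similar genes per member. Egr1, Fos, Acta2, Myh11 and the neighbours of Pdgfra were added after their values were seen. Some genes of the lists are counted but not reported here by name. Depth was 12105584 to 14262375 counts, so 3 counts are 0.210 to 0.248 CPM, a limit that covers counting error only.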

Additional observations from a re-analysis of the deposited data

How the results depend on the processing

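Leaving out 1 library at a time, log2 fold changes ran from 0.38 to 0.85 for Pdgfra, 0.03 to 0.19 for Pdgfrb, -0.47 to -0.32 for Pdgfa, -0.43 to -0.16 for Pdgfd and -0.75 to -0.11 for Pdgfc, and the untested log2 ratio of means of Pdgfb from -0.62 to 1.52 around 0.54. The difference in the log2 ratio of Pdgfra to Pdgfrb ran from 0.15 to 0.65 and that of Pdgfa to Pdgfc from -0.20 to 0.33. Members called higher numbered 0 to 1, genes called overall 513 to 1299 higher and 203 to 845 lower. Higher and lower calls ran from 1 to 7 and 1 to 2 for signalling genes, 0 to 3 lower for processing genes, 0 to 3 lower for transcription factors and 1 to 4 higher for relatives, while early targets had 8 to 10 higher.

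Without PBS 1 and rmCIRBP 2 together, Pdgfra was called (0.84) as the 1 member higher, Pdgfb stood at -0.91, 1669 genes were higher and 1133 lower, 3 signalling genes were lower and 2 transcription factors were lower. Pdgfa was called with upper quartile scaling (-0.46) and with DESeq2 (-0.40), 1 member lower in each. DESeq2 called 1172 genes lower. At an adjusted p of 0.01, 456 genes were higher and 152 lower, 1 signalling gene was higher, and 0 processing genes and 0 transcription factors were lower. At 0.1, 1653 were higher, 1413 lower, 1 member lower and 3 signalling genes lower. Signalling genes called lower numbered 2 with library size scaling, no filter, at least 10 counts in every library of a group, DESeq2 or protein-coding genes alone, and 3 with upper quartile scaling. The cause of these shifts was not tested.

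Pairing by replicate number was not visible (correlations of deviations of -0.13, -0.19 and 0.27 for numbers 1, 2 and 3). With 3 libraries a group these correlations cannot settle whether libraries were paired. With the replicate block 792 genes were higher and 466 lower, 4 signalling genes were higher, and Pdgfra was at 0.47 and Pdgfa at -0.40, neither called.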

Other observations

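Fos, an immediate early gene, was at 368, 387 and 536 CPM in PBS 1, 2 and 3 and at 591, 56.6 and 467 CPM in rmCIRBP 1, 2 and 3. In Egr1 and Pdgfra, too, rmCIRBP 2 was the lowest of the 6 libraries. So it was in Nrp1, a PDGF and VEGF co-receptor, at 231, 248 and 267 CPM in PBS and 274, 159 and 282 CPM after rmCIRBP. Acta2 and Myh11, smooth muscle genes, were highest in that library, at 6264 and 660 CPM.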
